A study of Mus musculus with 8 samples.

Results

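Ankrd1, Ccn1, Ccn2, Amotl1, Amotl2, Nt5e, Axl and Ajuba are known target genes of the transcriptional co-activators YAP and TAZ. They were taken by name, as 8 of the 32285 genes in the RNA matrix, together with the open-chromatin peaks over each gene. The choice was made with earlier results of these data known. YAP and TAZ do not bind DNA themselves and reach it through TEAD transcription factors. The LATS kinases of the Hippo pathway keep them out of the nucleus, and cell spreading, tension and loss of cell contacts release them. In the lung they are known for their part in the passage of surfactant-making type II cells to the thin type I cells of the gas-exchange surface.

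The nuclei came from mouse alveolarspheres, small cultures grown from type II cells (ATII) of young and old mice in a medium without serum or feeder cells. Infection on day 9 was with AAV9_Sox9Cre, a viral vector for Sox9 overexpression together with Cre recombinase (genotype Sox9Cre), or with AAV9_Cre, which served as control (genotype Cre). Each culture then had 4 days of differentiation medium meant to yield type I cells (ATI), and nuclei of live sorted tdTomato+ cells gave RNA and ATAC (open chromatin) libraries from the same nuclei. The labels list 8 samples, 2 in each of 4 groups, which are Sox9Cre RNA, Sox9Cre ATAC, Cre RNA and Cre ATAC. All groups share Cre carried by an AAV9 vector, the reporter sort and the differentiation medium. The labels used here give no strain, no reporter allele and no promoter of the vector. The counts came pooled, with 4 barcode prefixes, called libraries A to D, that no label ties to a virus or to an age. Sox9Cre and Cre are therefore not compared, the pooled matrix is 1 sample, and no difference below has a replicate check or a test. A level is given in UMIs (counted RNA molecules) of a gene per 10000 UMIs of a class of nuclei, with an exact Poisson 95% interval in brackets that covers counting error only, and libraries are given beside it singly or as a range.

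After filtering 7199 nuclei were kept, from 766 in library B to 3236 in library C, with a median of 9802 to 11733 UMIs per nucleus, and 40 barcodes occurred in more than 1 library. Marker scores placed 1646 nuclei in a transitional class, 1693 in a type I class and 2185 in a type II class, and 854 nuclei (11.9%) lay within 0.1 of the score gap that separates classes from mixed nuclei. The labels call the cells type II, and the summed type II markers stood at 1189 per 10000 in the type II class, against 115.5 in the transitional and 255.4 in the type I class. None of the 8 genes is in a marker list. Markers of mesothelium summed to 0.154 per 10000 in transitional nuclei (0.0972 to 0.220 over libraries), 0.0189 in type I and 0.00683 in type II nuclei. Those of mesenchyme summed to 0.0529, 0.00610 and 0.00683. Of the 10 mesenchymal markers 6 had a UMI in transitional, 4 in type I and 5 in type II nuclei. Col1a2 and Col3a1 were at 0 in transitional and also in type II nuclei. The part of such cells in the levels below was not tested.

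TEAD factors bind the letters GGAATG, read as CATTCC on the other strand. The RefSeq promoter table of GRCm38.p6, which gives 250 bases before to 50 bases after a start site, holds 7 of the 8 genes, and 5 of those 7 contain the motif, which 14.6% of all 27025 promoters in the table contain. The 4 promoters below are printed because they belong to genes that differed in different ways between classes of nuclei, and the capitals mark the motif. Ankrd1 lies on the minus strand at chr19:36119795-36120094, Ccn1 on the minus strand at chr3:145649936-145650235, Amotl2 on the plus strand at chr9:102717554-102717853 and Ajuba on the minus strand at chr14:54577612-54577911.
Ankrd1: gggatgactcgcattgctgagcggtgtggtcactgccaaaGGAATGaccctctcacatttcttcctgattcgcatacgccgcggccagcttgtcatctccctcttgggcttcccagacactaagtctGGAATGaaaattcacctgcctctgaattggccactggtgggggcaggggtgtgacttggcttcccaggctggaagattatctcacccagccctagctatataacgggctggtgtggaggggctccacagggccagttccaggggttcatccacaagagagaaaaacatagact
Ccn1: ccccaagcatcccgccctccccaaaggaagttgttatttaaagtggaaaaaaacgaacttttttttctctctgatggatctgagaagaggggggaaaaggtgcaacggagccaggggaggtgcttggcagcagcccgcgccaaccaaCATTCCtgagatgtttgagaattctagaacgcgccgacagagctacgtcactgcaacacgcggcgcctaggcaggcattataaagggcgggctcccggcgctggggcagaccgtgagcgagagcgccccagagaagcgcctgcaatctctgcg
Amotl2: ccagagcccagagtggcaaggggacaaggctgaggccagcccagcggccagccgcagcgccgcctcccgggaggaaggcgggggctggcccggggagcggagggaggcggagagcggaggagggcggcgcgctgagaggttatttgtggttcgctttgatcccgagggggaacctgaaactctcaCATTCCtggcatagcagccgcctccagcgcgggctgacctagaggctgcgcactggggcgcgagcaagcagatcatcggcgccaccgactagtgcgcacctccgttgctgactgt
Ajuba: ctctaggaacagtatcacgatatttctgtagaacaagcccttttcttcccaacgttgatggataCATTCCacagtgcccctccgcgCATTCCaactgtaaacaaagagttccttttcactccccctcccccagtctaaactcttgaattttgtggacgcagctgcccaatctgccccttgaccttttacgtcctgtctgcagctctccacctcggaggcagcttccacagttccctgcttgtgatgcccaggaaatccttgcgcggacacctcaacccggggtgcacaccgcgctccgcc
Ankrd1 and Ajuba hold the motif at 2 positions each, and Ccn1, Amotl2 and Axl at 1. In Ankrd1 the positions are -210 to -205 and -123 to -118 from the start site, in Ccn1 -103 to -98, and in Ajuba -186 to -181 and -164 to -159. The letters are not in the windows of Amotl1 and Nt5e. The Amotl1 start site of the promoter table, base 14615000 of chromosome 9, lies inside the listed gene span, which ends at 14662974 on the minus strand. The AP-1 motif TGANTCA was in 0 of the 7 windows and in 7.93% of the table. The CArG box of serum response factor, a run of A or T between CC and GG, was in 0 and in 1.57%. Both strands were searched, and a match is a description of letters, not a bound site.

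Ankrd1 encodes an ankyrin-repeat protein of nucleus and muscle sarcomere that is among the best-known YAP targets. Its level was 0.330 per 10000 in transitional nuclei (0.306 to 0.355), 0.0837 in type I nuclei (0.0709 to 0.0982) and 0.003075 in type II nuclei (0.00141 to 0.00584), which rested on 9 UMIs. In libraries A, B, C and D it stood at 0.420, 0.219, 0.284 and 0.390 in transitional nuclei, at 0.0989, 0.0357, 0.0754 and 0.112 in type I nuclei, and at 0, 0, 0.00416 and 0.00380 in type II nuclei. The 3 classes kept this order and did not overlap over the 4 libraries. Transitional over type II nuclei gave 107-fold (56.2 to 236), at least 54.5-fold in library A and at least 22.25-fold in library B, where type II nuclei held no UMI and were set to 3 counts. Without library C, which held 6 of the 9 type II UMIs, the fold was 180.0, and with classes taken from clusters it was 184.7. Few nuclei held the RNA. At an equal depth of 5000 UMIs, 8.05% of transitional nuclei (6.74% to 9.53%) had a UMI of Ankrd1, against 1.79% of type I and 0.0487% of type II nuclei, and a single transitional nucleus held up to 20. In type I nuclei of library D 4 of 359 thinned nuclei had a UMI, and 1 of them held 22.

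Ccn2 (CTGF) and Ccn1 (CYR61) encode secreted matricellular proteins that bind integrins and matrix. Ccn2 stood at 1.94 per 10000 in transitional nuclei (1.88 to 2.00), 0.620 in type I nuclei (0.585 to 0.658) and 0.0636 in type II nuclei (0.0548 to 0.0734). Over libraries A to D its level was 1.48, 1.92, 1.72 and 2.46 in transitional, 0.690, 0.548, 0.661 and 0.538 in type I, and 0.0926, 0.0524, 0.0631 and 0.0544 in type II nuclei. Again no library of a class reached the level of the next class. Transitional over type II nuclei gave 30.5-fold (26.4 to 35.6), with 15.9- to 45.2-fold in single libraries, and 19.7-fold with classes from clusters. Ccn1 differed less. It stood at 2.56 (2.49 to 2.63) in transitional, 2.07 (2.00 to 2.13) in type I and 1.11 (1.07 to 1.15) in type II nuclei, with library ranges of 2.27 to 2.79, 1.71 to 2.23 and 0.993 to 1.15. Its fold of transitional over type II nuclei was 2.31 (2.21 to 2.41), and its levels in type II nuclei lay below those of the other 2 classes in each library.

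Nt5e encodes CD73, the surface enzyme that turns AMP into adenosine, and Axl a receptor tyrosine kinase of the TAM family. Nt5e stood at 2.38 per 10000 in transitional nuclei (2.32 to 2.45), 1.26 in type I nuclei (1.21 to 1.31) and 0.336 in type II nuclei (0.315 to 0.357). The libraries were close together, at 2.24 to 2.57 in transitional, 1.17 to 1.29 in type I and 0.316 to 0.367 in type II nuclei, and the ranges did not overlap. The fold of transitional over type II nuclei was 7.11 (6.63 to 7.61). Axl was near the limit of detection, with 45 UMIs in all nuclei. Of these 32 fell in transitional nuclei (4, 4, 9 and 15 in libraries A to D), 4 in type I and 2 in type II nuclei, a fold of transitional over type II of 21.7 with an interval of 5.54 to 187. That fold is the least settled of the 8: it was 9.16 without library C, 12.3 without library D, and at least 2.215 when each nucleus was thinned to 3000 UMIs.

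Ajuba encodes a LIM-domain protein that restrains LATS kinases, and Amotl1 and Amotl2 encode angiomotin-family proteins that bind YAP and hold it back. Ajuba stood at 0.720 per 10000 in transitional nuclei (0.685 to 0.757) and 0.760 in type I nuclei (0.720 to 0.801), and at 0.162 in type II nuclei (0.147 to 0.177). Its type II level ran from 0.151 to 0.208 over libraries, while the other 2 classes overlapped, at 0.688 to 0.794 in transitional and 0.730 to 0.802 in type I nuclei. Amotl2 was highest in type I nuclei, at 0.797 (0.756 to 0.839), against 0.620 (0.587 to 0.654) in transitional and 0.437 (0.414 to 0.462) in type II nuclei, and it kept this order in each library. Amotl1 differed least between these classes. It stood at 0.320 (0.297 to 0.345) in transitional, 0.280 (0.256 to 0.306) in type I and 0.196 (0.180 to 0.213) in type II nuclei, and the transitional level of library B, 0.186, lay within the type II range of 0.170 to 0.216. Amotl1 was highest in the 226 airway secretory nuclei, at 0.791 (0.703 to 0.887), a class with 109 nuclei in library C and 113 in D.

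**Figure D1:**
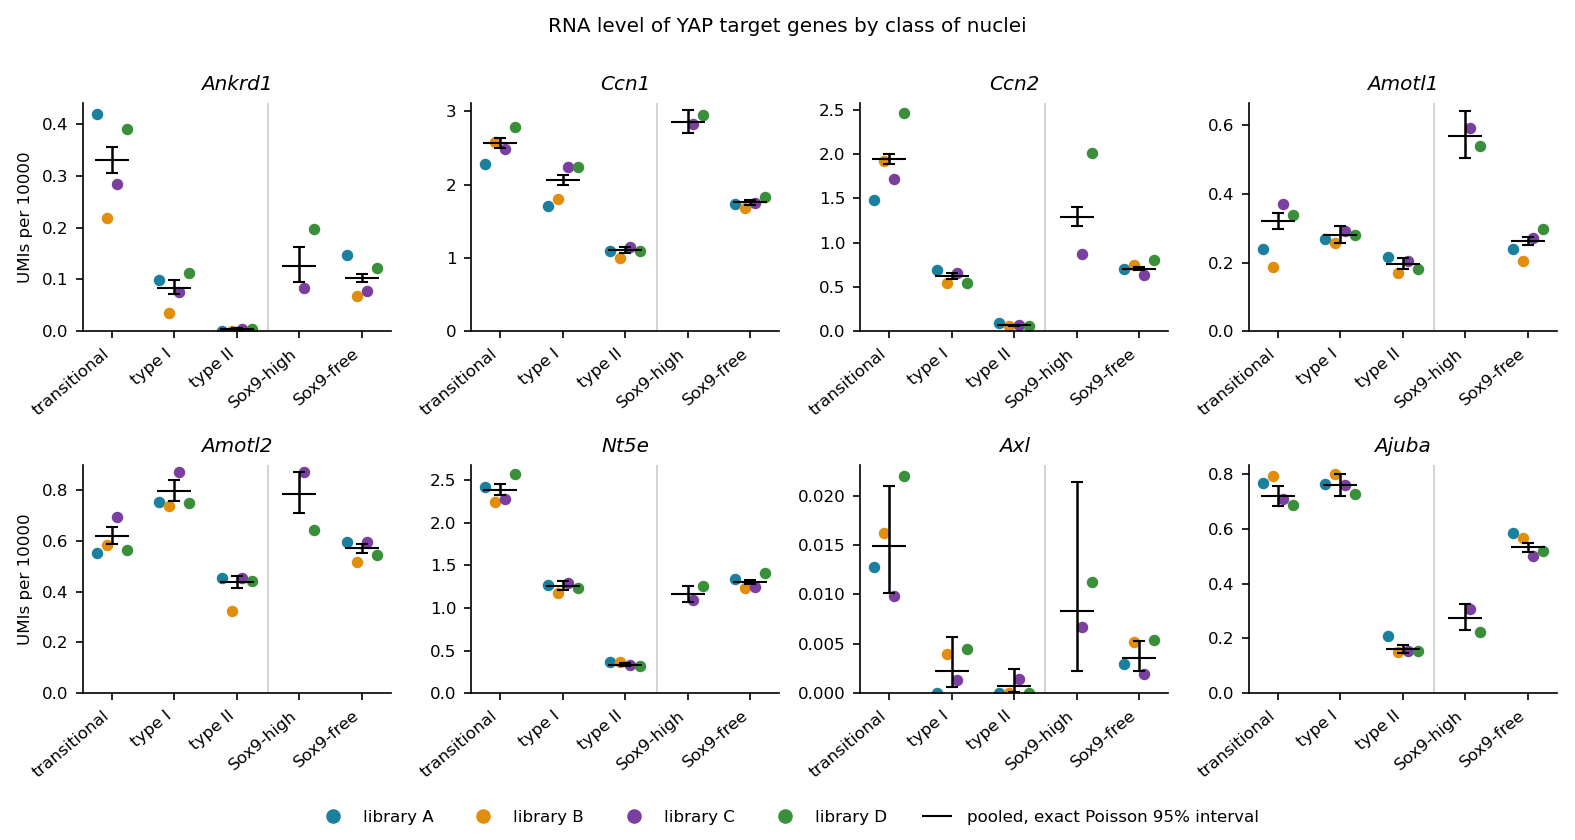
RNA level of the 8 genes in UMIs per 10000 by class of nuclei; dots are libraries A to D with at least 20 nuclei of the class, and black bars the pooled level with its exact Poisson 95% interval. Ankrd1, Ccn2 and Nt5e are highest in transitional nuclei in each library, while Amotl2 is highest in type I nuclei.

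Of the 8 genes 6 were at least 2-fold higher in transitional than in type II nuclei and 0 lower, where 13.4% of 14922 genes with at least 30 UMIs were higher and 8.64% lower. The 6 were Ankrd1, Ccn2, Axl, Nt5e, Ajuba (4.46-fold, 4.02 to 4.95) and Ccn1. The other 2, Amotl1 and Amotl2, stood at 1.63- and 1.42-fold. Since the 8 genes were chosen with earlier results of these data known, the contrast with all genes is a description only. The median log2 fold of the 8 genes was 2.49, against 0.10 over all genes tested. Ankrd1, Ccn2, Nt5e and Ajuba were each past 3-fold in the 4 libraries.

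Between type I and type II nuclei the folds of Ankrd1, Ccn2, Nt5e, Ccn1 and Amotl1 were smaller than those above, and the folds of Ajuba and Amotl2 were larger. Of 7 genes with enough UMIs 4 were at least 2-fold higher in type I nuclei and 0 lower, where 7.88% of 14470 genes were higher and 6.53% lower. Ankrd1 gave 27.2-fold (13.97 to 60.7), Ccn2 9.76-fold (8.35 to 11.5), Ajuba 4.70-fold and Nt5e 3.75-fold. Below the threshold were Ccn1 at 1.86, Amotl2 at 1.82 and Amotl1 at 1.43. The median log2 fold was 1.91, against 0.10 over all genes. With classes from clusters these folds were smaller, at 16.1 for Ankrd1, 4.08 for Ccn2, 2.70 for Ajuba, 2.48 for Nt5e and 1.22 for Ccn1, and without library C Ankrd1 gave 44.2-fold.

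Between transitional and type I nuclei the list split. Ankrd1 (3.94-fold, 3.30 to 4.73), Ccn2 (3.13-fold in the pool, 2.14- to 4.57-fold in libraries) and Axl (6.69-fold, 2.37 to 26.1) were at least 2-fold higher in transitional nuclei and 0 were lower, where 8.55% of 14428 genes were higher and 5.83% lower. Nt5e stood just under the threshold at 1.90-fold and Ccn1 at 1.24-fold. Amotl2 at 0.778 (0.7215 to 0.839) lay on the type I side. Ajuba at 0.948 had an interval that spans 1 (0.881 to 1.02) and stood at 1.003 in library A, and Amotl1 at 1.14 had libraries on both sides, 0.884 in A and 0.722 in B against 1.26 in C and 1.22 in D. With classes from clusters Ajuba and Amotl2 turned to 1.23- and 1.09-fold, Ankrd1 stood at 11.5-fold, Ccn2 at 4.81-fold and Ccn1 at 1.97-fold. The median log2 fold was 0.62, against 0.00 over all genes.

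**Figure D2:**
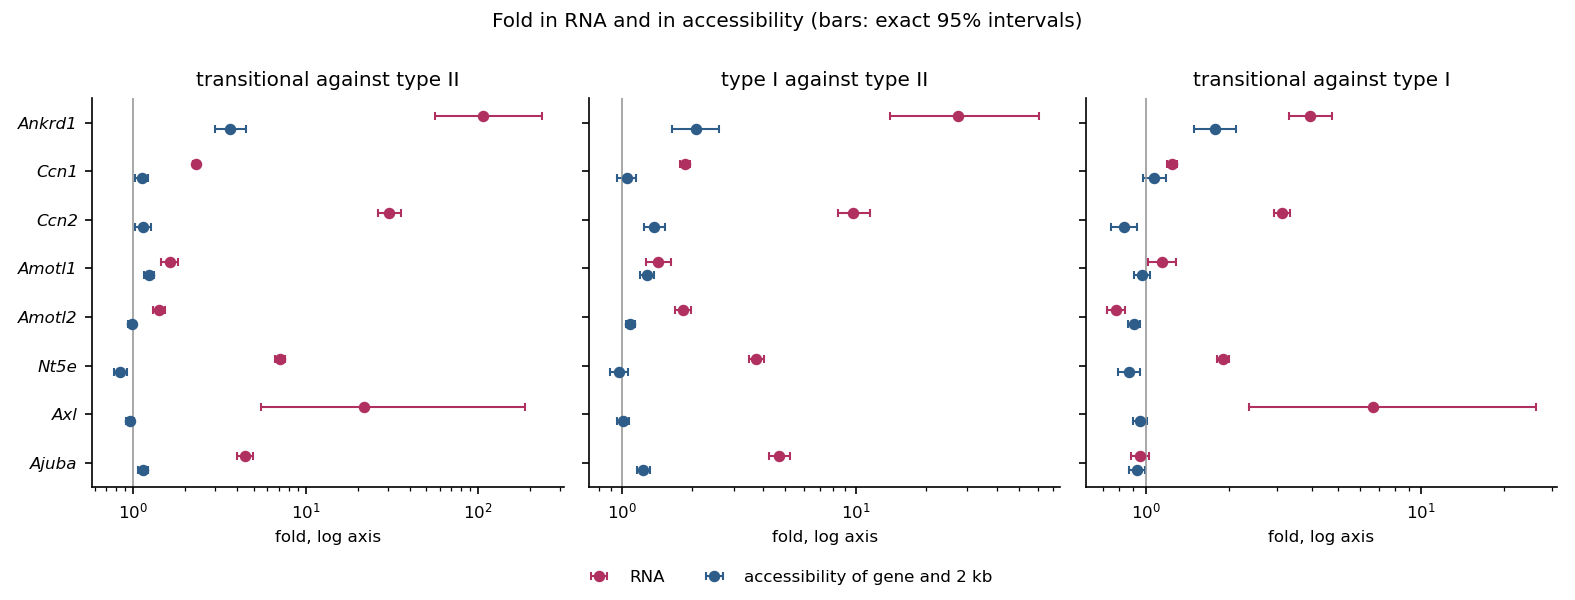
Fold of the 8 genes between classes of nuclei on a log axis, for RNA (UMIs per 10000) and for accessibility of peaks over the gene and 2 kb on either side; bars are exact 95% intervals, and Axl RNA is left out where it has under 30 UMIs. RNA reaches 107-fold for Ankrd1, whereas accessibility stays near 1 for all genes but Ankrd1 at 3.66-fold.

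Accessibility of a gene's window, meaning its span plus 2 kb at both ends, was summed over peaks and scaled to 10000 ATAC counts, in 6319 nuclei with at least 1000 such counts. Ankrd1 alone of the 8 genes passed the 1.5-fold threshold used for accessibility. It stood at 0.193 in transitional nuclei, 0.108 in type I and 0.0526 in type II nuclei, which gave 3.66-fold for transitional over type II (2.99 to 4.51), 2.06-fold for type I over type II and 1.78-fold for transitional over type I. The last of these was 1.05 (0.506 to 2.205) in library B and so under the threshold there, and 1.55 to 2.06 in the others. In each of these 3 comparisons 1 of 8 genes was higher and 0 lower. Of 19590, 19559 and 19569 genes with counts 6.78%, 3.04% and 5.15% were higher and 3.83%, 2.43% and 2.38% lower, with the comparisons in the same order. The other 7 genes lay between 0.843 and 1.23 for transitional over type II nuclei. The Axl window also holds part of Hnrnpul1, and 2 of its 6 peaks held 1257 and 448 of its 2138 transitional counts, at 0.848- and 0.972-fold. So Ccn2, Nt5e and Ajuba, whose RNA differed by more than 4-fold, had windows at 1.14, 0.843 and 1.14.

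Single peaks showed where Ankrd1 differed. The peak over its start site (chr19:36119576-36120520, GRCm38, which spans the printed promoter) held 240 counts in transitional, 91 in type I and 33 in type II nuclei. Its accessibility was 0.129, 0.0511 and 0.0135 per 10000, or 9.55-fold higher in transitional than in type II nuclei (6.62 to 14.2), with 8.46- to 15.1-fold in libraries, and 3.80-fold higher in type I than in type II nuclei. Transitional over type I nuclei gave 2.51-fold at this peak, with 0.935 to 3.81 in libraries. The start-site peaks of the other genes with a known start were more alike between transitional and type II nuclei. They gave 1.09-fold for Ccn1 (0.977 to 1.22), 0.990 for Amotl2, 0.977 for Ajuba, 0.924 for Nt5e, 0.820 for Amotl1 at its listed internal start and 1.40 for Axl (1.01 to 1.95), while the 1 peak over Ccn2 gave 1.14. Over the 8 genes 14 of 39 peaks with enough counts were at least 1.5-fold higher and 2 lower, where 23.6% of 107898 peaks were higher and 15.2% lower. Of the 14 peaks 9 lay over Amotl1, a long gene of 121009 bp. The peaks at chr9:14568277-14569132, chr9:14604041-14604953 and chr9:14588542-14589465 gave 5.601-, 4.48- and 4.45-fold, although Amotl1 RNA differed by 1.63-fold. Axl had a peak inside the gene at chr7:25781954-25782473 with 4.497-fold (3.23 to 6.36), and Nt5e a peak at chr9:88350081-88351004 that was lower, at 0.476 (0.380 to 0.593).

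Peaks up to 50 kb from each gene, a window chosen after the data were seen, were also read, beside the same 23.6% of all peaks higher and 15.2% lower. Such windows can hold other genes, and a peak within one was not tied to its gene. Around Ankrd1 8 of 10 peaks were at least 1.5-fold higher in transitional than in type II nuclei, among them chr19:36132615-36133443, 12.8 kb from the gene, at 5.22-fold (3.80 to 7.30). Around Ccn2 7 of 16 were higher and 1 lower. The largest fold there was 9.25 (5.90 to 15.2) at chr10:24580795-24581797, 13.6 kb from the gene, with 1.97 to 13.2 in libraries. It rested on 155 transitional and 22 type II counts over all libraries. Around Ccn1 5 of 12 were higher, with 8.18-fold (4.525 to 16.02) at chr3:145666035-145666959, 16.1 kb away. That peak held 81 transitional and 13 type II counts, and 3 libraries with more than 3 counts in either class ran from 1.41 to 8.29. In library folds of peaks a count of 0 was set to 3, so those on few counts can be bounds. Around Nt5e the peak 2.5 kb outside the gene at chr9:88324307-88325159 gave 4.02-fold, with 3.88 to 4.64 in libraries. Near Axl a peak at chr7:25797951-25798904, 9.0 kb from the gene, gave 10.2-fold (5.70 to 19.8) on 13 type II counts, with 5.075 to 15.8 in libraries. Around Amotl1 11 of 20 peaks were higher and 2 lower, around Axl 5 of 17 and 0, and around Nt5e 3 of 9 and 1. Around Amotl2 2 of 19 were higher and 2 lower, and around Ajuba 1 of 16 and 1.

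**Figure D3:**
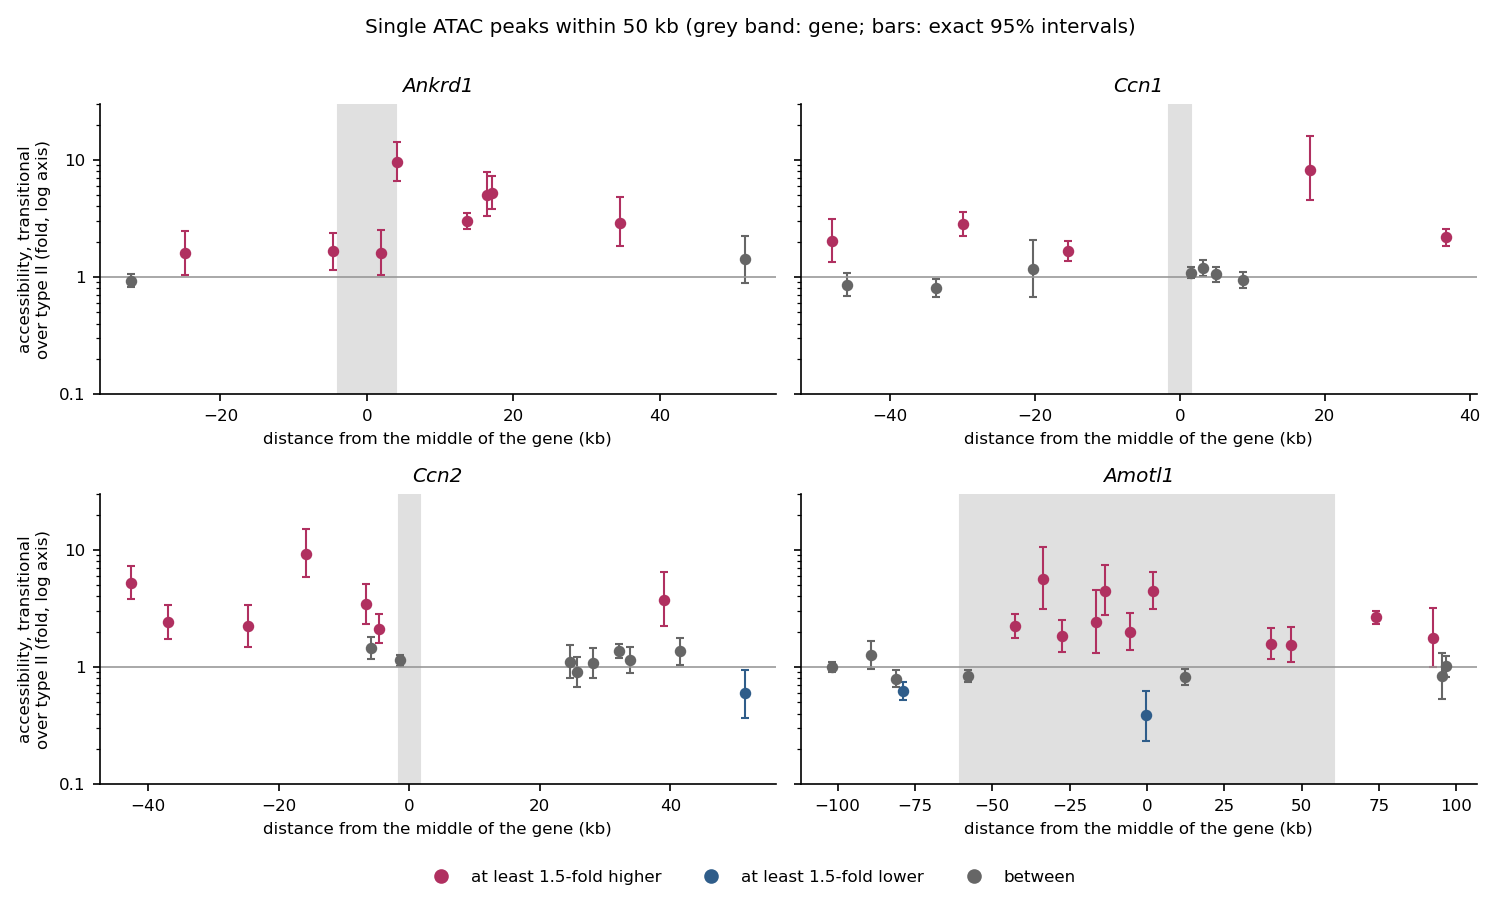
Accessibility fold of transitional over type II nuclei (log axis) for single peaks within 50 kb of Ankrd1, Ccn1, Ccn2 and Amotl1, by distance from the middle of the gene in kb; the grey band is the gene and bars are exact 95% intervals. The Ankrd1 start-site peak stands at 9.55-fold, while the peaks at Ccn1 and Ccn2 themselves lie near 1 and higher ones lie several kb away.

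Nuclei in which a gene's RNA was seen could be set beside nuclei of the same class in which it was not. In transitional nuclei the Ankrd1 window stood at 0.380 per 10000 in the 111 nuclei with Ankrd1 RNA and at 0.177 in the 1282 without, 2.15-fold (1.59 to 2.87), with 1.92-fold in library C and 2.62-fold in D. The Ccn1 window was higher in nuclei with Ccn1 RNA in each class, at 1.31-fold in transitional (1.145 to 1.499), 1.29-fold in type I (lower bound 1.11) and 1.575-fold in type II nuclei (1.38 to 1.80). In libraries it ran from 1.18 to 1.99 in transitional and from 1.525 to 2.09 in type II nuclei, while in type I nuclei library B lay at 0.895. For Ccn2 in transitional nuclei the interval spanned 1, at 1.14-fold (0.961 to 1.35). Nt5e and Amotl1 windows in that class gave 1.035- and 0.974-fold, also with intervals that span 1. In the transitional class Ajuba gave 1.14-fold (1.03 to 1.27), with library B at 0.956, and Amotl2 1.06-fold (0.976 to 1.16). In type II nuclei the Amotl2 window was lower where its RNA was seen, at 0.909-fold (0.837 to 0.987), with library B at 1.17. The other pooled folds read in type I and type II nuclei, Ccn1 apart, had intervals that span 1. Among them Ankrd1 in type I nuclei gave 0.855 (0.103 to 3.135), on 2 counts in nuclei with its RNA.

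To ask whether the targets move together within a class, 6477 nuclei were thinned to 5000 UMIs. Pearson correlations of log counts were then computed after centring each gene within library and class. The nuclei included mixed ones and those set apart as other cell types, each centred as a further class. Pooled values are thus not of transitional, type I and type II nuclei alone, and differences between cells inside these further classes remain. Nuclei share their library and the RNA counts are sparse, so these values describe the pool. The 28 pairs of the 8 genes had a median r of 0.0407, against 0.00108 for all pairs of 6759 genes found in at least 10% of nuclei. Of the 28 pairs 6 reached 0.1 (21.4%), as did 0.397% of all pairs. The pairs that reached 0.1 all include Ccn1 or Ccn2. Ccn1 and Ccn2 had r = 0.285, positive in 12 of 12 combinations of library with the transitional, type I and type II classes. Over all 6477 nuclei, mixed and set-apart ones included, 614 held both where 394 would if the 2 were independent within library and class. Ankrd1 and Ccn2 had r = 0.253, positive in 9 of 9, with 107 nuclei holding both where 47.5 would. Ankrd1 with Ccn1 (0.117), Ccn2 with Nt5e (0.115), Ccn1 with Amotl2 (0.111) and Ccn2 with Ajuba (0.104) followed. Weak values near 0 were found for Amotl1 with Nt5e (-0.00301) and Amotl2 with Nt5e (-0.00736), and Axl was too sparse to read.

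**Figure D4:**
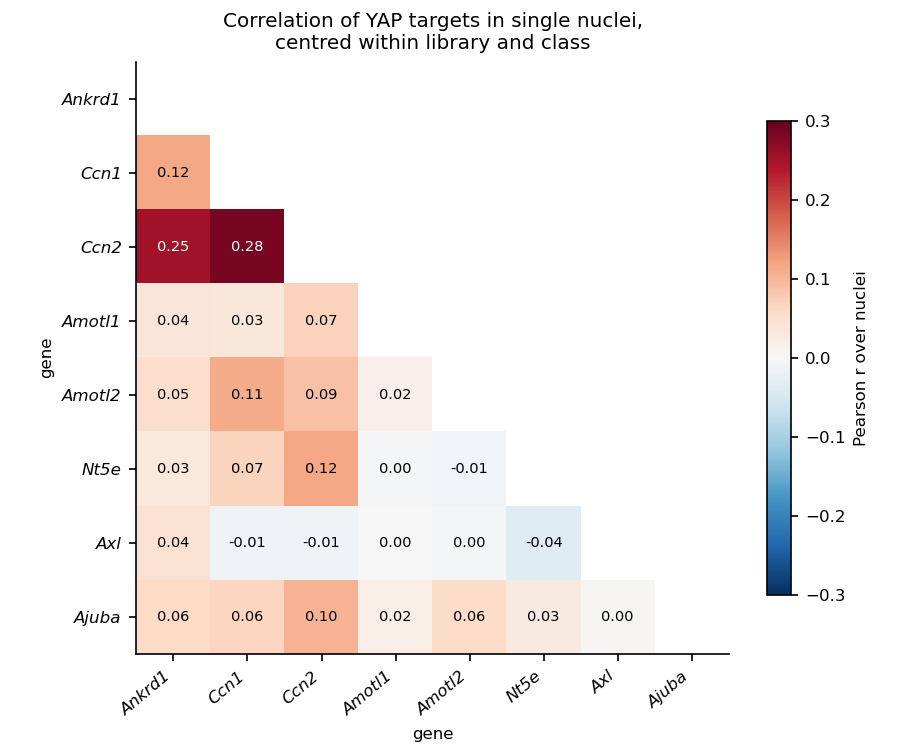
Pearson r between pairs of the 8 genes over 6477 nuclei thinned to 5000 UMIs and centred within library and class; colour runs from -0.3 to 0.3. Ankrd1, Ccn1 and Ccn2 form the corner of higher values, up to 0.285. The highest value of Amotl1 is 0.0682, with Ccn2, and that of Axl, which is too sparse to read, 0.0449, with Ankrd1.

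Among 6759 genes Ccn2 ranked first for Ankrd1 and for Ccn1, and Ccn1 ranked first for Ccn2. F3, the gene of tissue factor that starts blood clotting, ranked second for all 3, with r of 0.158, 0.214 and 0.284. Next came Dstn (0.196), an actin-severing protein, for Ccn1, and Tnfrsf12a (0.237), the TWEAK receptor, for Ccn2. Nt5e was closest to Itgb6 (0.191), Ndnf (0.189) and Gprc5a (0.175), of which Itgb6 is a transitional and Gprc5a a type I marker. Ajuba was closest to Gprc5a (0.158), Mab21l4 (0.134) and Gadd45b (0.131), and Amotl2 to the stress gene Gadd45b (0.138), Ccn1 and Ier3 (0.103). For Amotl1 and Axl the highest values were 0.0957 with Tubb2b and 0.0695 with Brms1, too weak in sparse counts to read.

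Within transitional nuclei the level of Ccn2 went with the UMIs of the other 7 genes in the same thinned nucleus. It stood at 0.270 per 10000 (0.187 to 0.377) where the others had 0 UMIs, and at 0.786, 1.16 and 3.33 (3.15 to 3.51) where they had 1, 2 and 3 or more. Library A ran from 0.0769 to 2.55 between the first and last of these bins, B from 0.125 to 4.12, C from 0.462 to 2.87 and D from 0.234 to 4.03, so the direction held in each. Ccn1 stood at 1.27, 1.498, 2.54 and 3.91 over the same bins, and Nt5e at 1.66, 2.15, 2.41 and 2.71. Amotl1 stood at 0.238, 0.297, 0.202 and 0.446, and its last bin was its highest in each library. The steps between were not steady in each library for Nt5e or for Amotl1. Over 4 equal bins of 382 nuclei, from low to high transitional marker score, Ankrd1 stood at 0.162, 0.199, 0.372 and 0.785, Ccn2 at 0.864, 1.84, 2.07 and 3.39, and Ajuba at 0.435, 0.749, 0.848 and 0.974. Amotl1 had no steady order, at 0.361, 0.293, 0.414 and 0.351. These bins were cut over all libraries together. Before thinning, the median transitional score of transitional nuclei ran from 0.651 in library C to 0.789 in D. The part of library in these steps was not tested.

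The ratio of variance to mean over single nuclei also differed among the genes. In thinned transitional nuclei the variance was 6.56 times the mean for Ccn2, 5.87 for Ankrd1, 4.48 for Ccn1 and 2.85 for Nt5e, where counting error alone gives a ratio of 1. It was 1.36 for Amotl1, 1.32 for Amotl2 and 1.22 for Ajuba. At an equal relative spread this ratio lies nearer to 1 for a gene with fewer UMIs, so it does not rank the genes by spread. Mean UMIs per thinned transitional nucleus were 0.177 for Amotl1, 0.323 for Amotl2 and 0.376 for Ajuba. They were 1.02 for Ccn2, 0.190 for Ankrd1, 1.34 for Ccn1 and 1.15 for Nt5e. The tenth of transitional nuclei richest in Ccn2 held 67.9% of its UMIs. A UMI of Ccn2 was found in 31.7% of thinned transitional (29.4% to 34.1%), 14.8% of type I and 3.02% of type II nuclei, and for Nt5e the shares were 50.1%, 34.4% and 12.6%.

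Sox9-high nuclei were those with at least 5 Sox9 UMIs, and Sox9-free nuclei those with 0. The 312 Sox9-high nuclei came from libraries C (197), D (114) and A (1), and had a median of 14368 UMIs against 10629.5 in the 5538 Sox9-free nuclei. Of the Sox9-free nuclei 1254 came from library A and 756 from B. Sox9 stood at 0.0147 and 0.0142 per 10000 in those libraries, against 1.08 in C and 0.939 in D. Pooled values of Sox9-high and Sox9-free nuclei thus also compare libraries. Transitional nuclei made up 41.7% of Sox9-high and 20.8% of Sox9-free nuclei. The part of library, depth and class in the pooled values was not tested. Amotl1 was the 1 of 7 genes with enough UMIs that was at least 2-fold higher, and 0 were at least 2-fold lower, where 7.08% of 15791 genes were higher and 7.23% lower. That share is near the background. Amotl1 stood at 0.571 per 10000 (0.505 to 0.643) in Sox9-high and 0.262 (0.2499 to 0.275) in Sox9-free nuclei, 2.18-fold (1.91 to 2.48), with 2.17-fold in library C and 1.83-fold in D. Ajuba lay on the other side, at 0.276 (0.231 to 0.327) in Sox9-high and 0.533 (0.515 to 0.551) in Sox9-free nuclei, a fold of 0.518 (0.432 to 0.616), with 0.615 in C and 0.433 in D. Ccn1 stood at 2.86 in Sox9-high and 1.76 in Sox9-free nuclei, 1.63-fold in the pool, 1.615-fold in C and 1.608-fold in D. Ccn2 gave 1.83-fold, but the libraries differed, with 1.38-fold in C and 2.52-fold in D. Amotl2, Ankrd1 and Nt5e gave 1.38-, 1.23- and 0.889-fold, and over these 7 genes the median log2 fold was 0.46 against -0.01 over all genes.

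Inside the transitional class of libraries C and D, 129 Sox9-high nuclei could be set beside 704 Sox9-free nuclei. Amotl1 stood at 0.656 and 0.292 per 10000, 2.25-fold (1.81 to 2.78), and in libraries C and D at 2.38- and 2.02-fold. Amotl2 gave 1.71-fold (1.44 to 2.04), Nt5e 0.682 (0.609 to 0.762) and Ajuba 0.543 (0.427 to 0.683), each on the same side of 1 in both libraries. Ccn1 gave 1.105-fold (1.00 to 1.21), with 1.18-fold in C and 1.035-fold in D, against 1.63-fold over all classes. Ccn2 and Ankrd1 went opposite ways in the 2 libraries, at 0.650 in C and 1.86 in D for Ccn2 and at 0.437 in C and 1.23 in D for Ankrd1. Among mixed nuclei (104 Sox9-high and 641 Sox9-free) Amotl1 gave 3.41-fold, Ccn1 2.10-fold, Ccn2 1.88-fold, Nt5e 0.510 and Ajuba 0.416. Ccn1 gave 1.68-fold within type II and 1.015-fold within type I nuclei. The Amotl1 difference was not seen in the 60 type II and 18 type I Sox9-high nuclei, where the folds over all libraries were 0.881 and 0.838. These rest on few counts, with 20 and 6 Amotl1 UMIs in the Sox9-high nuclei of libraries C and D. In libraries C and D alone the folds were 0.872 (0.525 to 1.37) in type II and 0.836 (0.304 to 1.85) in type I nuclei. A difference between classes was not tested. In type I nuclei of libraries C and D Ccn2 gave 0.223 (0.0459 to 0.657), on 3 UMIs in Sox9-high nuclei.

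**Figure D5:**
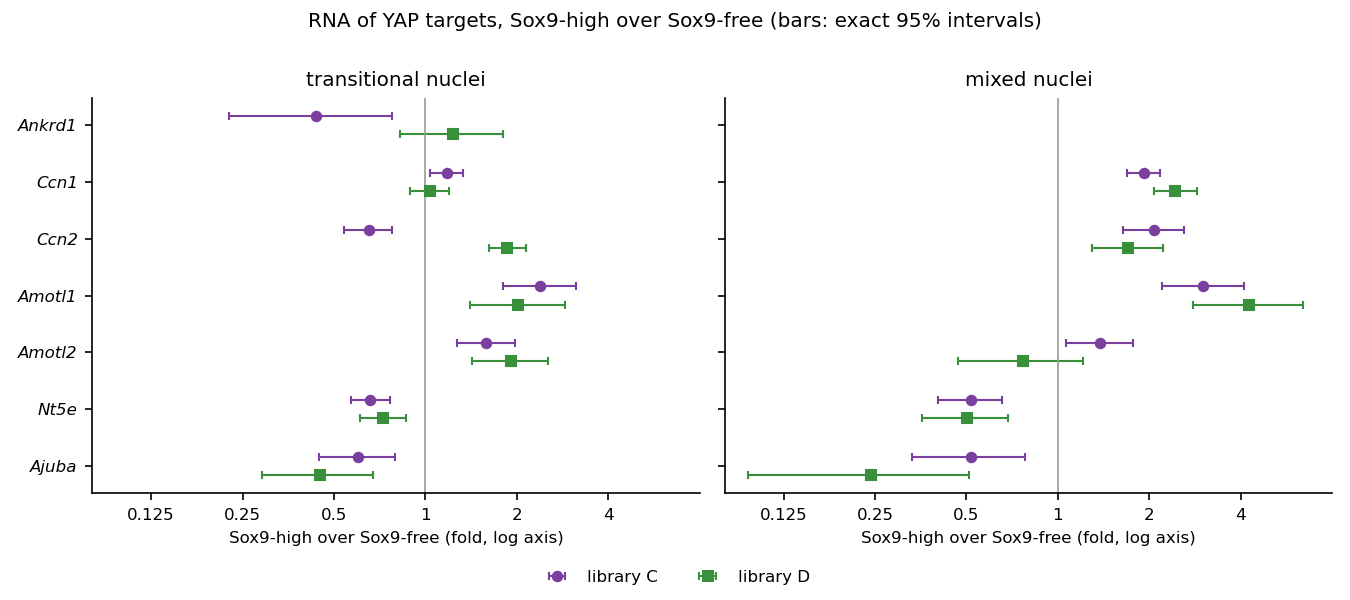
RNA fold of Sox9-high over Sox9-free nuclei (log axis) within transitional nuclei on the left and mixed nuclei on the right, for library C (circles) and library D (squares); bars are exact 95% intervals, and points with under 30 UMIs are left out. Amotl1 lies above 1, and Nt5e and Ajuba below 1, in both libraries and both classes, whereas Ccn2 splits by library in transitional nuclei.

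Steps of Sox9 RNA were also compared within libraries C and D. In library C, at 0, 1 to 2, 3 to 4, 5 to 9 and 10 or more Sox9 UMIs, Amotl1 stood at 0.273, 0.313, 0.255, 0.497 and 0.737 per 10000, and in library D at 0.297, 0.327, 0.258, 0.273 and 0.783. Ajuba stood at 0.4999, 0.408, 0.462, 0.326 and 0.279 in library C, and at 0.521, 0.426, 0.452, 0.202 and 0.247 in D. Ccn1 stood at 1.75, 1.91, 2.45, 2.44 and 3.41 in C, and at 1.83, 2.09, 2.60, 1.86 and 3.94 in D. Nt5e stood at 1.245, 1.005, 1.02, 0.927 and 1.355 in C, and at 1.41, 1.28, 1.02, 1.02 and 1.46 in D. The step of 10 or more was the highest of the 5 for Amotl1, Ccn1, Amotl2 and Nt5e in both libraries. Nt5e had no steady direction. It lay below its Sox9-free level at 1 to 2, 3 to 4 and 5 to 9 Sox9 UMIs, while its interval at 10 or more included that level. In accessibility 0 of the 8 gene windows were past 1.5-fold in either direction between Sox9-high and Sox9-free nuclei, where 5.06% of 19656 genes were higher and 3.58% lower, and the median fold of the list was 1.01 against 0.963. Of 40 single peaks 9 were higher and 4 lower, where 16.7% of 109364 peaks were higher and 15.8% lower. The Axl peak at chr7:25781954-25782473 gave 2.82-fold (2.02 to 3.89), with 2.23 to 3.26 over libraries C and D. An Amotl2 peak at chr9:102723215-102724270 gave 2.55-fold (2.11 to 3.05), with 2.635 to 2.70 over libraries C and D. The pooled folds also count Sox9-free nuclei of libraries A and B, which the library folds leave out.

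Other genes of the pathway are given for context. Of 14 tested YAP and TAZ targets outside the 8, 6 were at least 2-fold higher in transitional than in type II nuclei and 1 lower, beside 13.4% and 8.64% of all genes, and the median of their log2 folds was 0.93. F3 gave 43.5-fold (39.8 to 47.6), Ccdc80 7.24-fold on 38 UMIs, Tgfb2 4.09-fold and Ptpn14 3.33-fold, and Rbms3 0.2185. In type I over type II nuclei F3, Fjx1, Tgfb2 and Ptpn14 gave 5.90-, 5.54-, 5.43- and 3.05-fold. There 5 of 13 were higher and 1 lower, beside 7.88% and 6.53% of all genes. Pooled over libraries, F3, Gadd45a and Fjx1 were the 3 of 15 higher in Sox9-high nuclei, at 4.20-, 3.24- and 2.01-fold, with 0 lower. Of all genes 7.08% were higher there and 7.23% lower. Genes of the Hippo pathway and its partners differed less. Of 22, 4 were higher in transitional than in type II nuclei and 0 lower, beside 13.4% and 8.64% of all genes, and the median of their log2 folds was -0.05. They were Vgll3, a TEAD cofactor (22.5-fold), Amot, the founding angiomotin (7.29-fold), and the TEAD factors Tead2 (2.76-fold) and Tead4 (2.27-fold). Yap1 and Wwtr1, which encode YAP and TAZ and are added here outside the rule for named genes, stood at 0.956 (0.897 to 1.02) and 1.12 (1.08 to 1.17). In type I over type II nuclei Tead4 gave 4.01-fold, Amot 3.27-fold, Tead1 2.51-fold and Wwc2, of the KIBRA family, 2.47-fold. They were among 5 higher and 0 lower of 21, beside 7.88% and 6.53% of all genes. Frmd6 stood at 0.313 in transitional over type I nuclei, as the 1 lower of 22 beside 3 higher. Of all genes 5.83% were lower in that comparison and 8.55% higher.

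Of 4 tested genes of the TAM receptors and their ligands 0 were at least 2-fold higher in transitional than in type II nuclei and 1 lower, where 13.4% of all genes were higher and 8.64% lower. Gas6, the ligand of AXL, was the lower gene, at 0.659 in transitional and 1.88 per 10000 in type II nuclei, a fold of 0.350 (0.330 to 0.372). Of 5 tested genes of the adenosine pathway 3 were lower and 1 higher. Entpd1 (CD39), which makes the AMP that CD73 uses, stood at 0.0566 in transitional and 0.710 in type II nuclei, a fold of 0.0798 (0.0659 to 0.0958). Adk, adenosine kinase, gave 0.313 and Adora1, an adenosine receptor, 0.389, while Ada, adenosine deaminase, gave 2.84-fold on 34 UMIs.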

How the data were processed

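Raw UMI counts per gene and raw ATAC counts per peak were deposited by the authors as 2 pooled matrices of 7224 nuclei, 32285 genes and 116068 peaks. The submitters' processing notes name GRCm38 and mm10 as builds and list Signac 1.10.0, Seurat 4.3.0 and Cell Ranger 6.0.1, with no role given. The peak caller and any earlier filter, both not given in the sources used here, can affect which peaks and nuclei appear. The members and gene lists were chosen with earlier results of these data known.

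Kept nuclei had 500 or more UMIs, 300 or more genes and a mitochondrial share under 20%, which removed 25. A nucleus took the class of its highest mean marker z score if that was above 0 and at least 0.2 above the next. Others were mixed, and nuclei with at least 3 genes of another cell type at 2 or more UMIs were set apart. Scrublet marked 15 nuclei (0.208%), was treated as not having worked, and doublets can remain. Counts were summed per class. Genes with at least 30 UMIs in the 2 classes were read against a threshold of 2-fold, or 1.5-fold for accessibility, with no statistical test. A count of 0 was set to 3, counts of 3 or fewer in the higher class were not called, and ratios have exact conditional 95% intervals. The planned test between Sox9Cre and Cre was not run, since no label ties a barcode to a sample. Multiplexing oligo lists, which name other samples, were left out.

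Gene positions came from RefSeq GRCm38.p6 for 26292 genes (81.4%), and 47.2% of start sites lay in a peak, against 5.91% when moved by 100 kb. Named genes are the 8 members, the 3 genes most correlated with each, and up to 4 genes of each list by fold, and some of these are not reported here. Python 3.11.15, scanpy 1.11.5, scipy 1.17.1, numpy 2.4.6, pandas 2.3.3, scikit-learn 1.9.0, igraph 0.11.9, leidenalg 0.10.2 and matplotlib 3.10.9 ran the steps, which were checked on simulated data. Alternatives changed the depth filter, score gap, clusters, scaling, thinning, doublets, Sox9 threshold, accessibility window and library left out. The 50 kb window and the use of libraries C and D alone were chosen after seeing the data.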

Additional observations from a re-analysis of the deposited data

How the results depend on the processing

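Of 162 recomputed counts and medians 152 stayed within 1.5 times the reported value and 10 moved. The median correlation of the pairs, 0.0407 as reported, was 0.0673 without centring, and 0.0578 with nuclei thinned to 10000 UMIs, which is within 1.5 times. The other 9 concern Sox9-high against Sox9-free nuclei. There the count of genes at least 2-fold higher, 1 as reported, was 2 with nuclei thinned to 3000 UMIs, 3 with at least 10 Sox9 UMIs, and 0 within type II and within type I nuclei. Leaving out each library gave 1 to 2, with 2 without library C. The count at least 2-fold lower, 0 as reported, was 1 with at least 10 Sox9 UMIs, 2 within type I nuclei, and 0 to 1 on leaving out each library, with 1 without library C. In accessibility the count of 0 higher became 1 with peaks over the gene alone. Of 626 recomputed folds of single genes 523 stayed within the reported interval, 100 left it, and 3 that had been past 2-fold crossed 1. Folds nearer to 1 that crossed it, such as those of Ajuba and Amotl2 in transitional over type I nuclei, are among the 100 or the 523. The 3 folds of Sox9-high over Sox9-free nuclei were those of Amotl1 within type II (0.881) and type I (0.838) nuclei and of Axl within transitional nuclei (0.838). The cause was not tested.

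No paired analysis was possible because the barcodes carry no replicate number and no result comes from a test. Depth limits Axl, with 45 UMIs, and Ankrd1 in type II nuclei, with 9. Intervals cover counting error and not the variation between animals or cultures.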

Other observations

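Genes of the actin cytoskeleton and serum response factor were also higher in transitional than in type II nuclei, with 9 of 18 tested at least 2-fold higher and 0 lower, beside 13.4% and 8.64% of all genes, and a median log2 fold of 1.08. Tpm2, a tropomyosin, gave 41.9-fold (36.0 to 49.1), Myl9, a myosin light chain, 25.3-fold, Acta2, smooth muscle actin, 7.53-fold on 72 UMIs, and Flna, a filamin, 4.31-fold. In Sox9-high nuclei Tpm2 lay on the other side. Pooled over libraries it stood at 0.347 per 10000 against 0.939 in Sox9-free nuclei, a fold of 0.370 (0.315 to 0.431). Of 10 TGF-beta targets 4 were higher in transitional than in type II nuclei and 0 lower, beside the same shares of all genes.

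The AP-1 and stress list went both ways between transitional and type II nuclei, with 7 of 15 higher and 3 lower, beside 13.4% and 8.64% of all genes. Fosl1 gave 16.8-fold (12.2 to 23.8) and Ier3 9.27-fold, while Fos, Fosb and Egr1 stood at 0.358, 0.343 and 0.350.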
